A study of Arabidopsis thaliana with 12 samples.

Results

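The levels of 10 genes of the endoplasmic reticulum (ER) body system of Arabidopsis thaliana were followed across stems of 4 genotypes. They were PYK10 (AT3G09260), BGLU18 (AT1G52400), NAI1 (AT2G22770), NAI2 (AT3G15950) and MEB1 (AT4G27860), and the jacalin-related lectin genes JAL22 (AT2G39310), JAL30 (AT3G16420), JAL33 (AT3G16450), JAL34 (AT3G16460) and JAL35 (AT3G16470). They were taken by gene identifier as 10 of the 27655 genes of the deposited expression table, and all 10 passed the filter on low values used for testing. The set was chosen by its function and by the FPKM levels of its genes in these libraries, which were known when it was drawn up. The levels and differences of the 10 genes are therefore a description, no p is given for them, and counts of those past the threshold stand beside the share over all genes with nothing read from them. NAI1, JAL22 and JAL33 passed the filter through ccrfer and labelled fer libraries alone.

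Each genotype had 3 libraries, 12 in all, made from main inflorescence stems of 2-month-old plants. The ccrfer group was the double mutant of ccr1-3 with fer4 in replicate 1, and its genotype labels read fer5 in replicate 2 and fer6 in replicate 3. The fer group was labelled fer4, the ccr group carried ccr1-3, and WT was Col-0. ccr1-3 affects CCR1, a cinnamoyl-CoA reductase of lignin synthesis, and fer alleles affect FERONIA (FER), a receptor kinase of the cell surface. The study asked how loss of FER alters genes that are raised in ccr1-3. The labels do not say whether replicates were single plants or pools, so the spread between them may be in part technical.

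ER bodies are spindle-shaped compartments of the Brassicaceae that store beta-glucosidases away from their substrates until a cell is broken. PYK10 (BGLU23) is the main ER body glucosidase of roots and seedlings, and BGLU18 is that of the ER bodies that form in leaves after wounding or jasmonate. NAI1, a basic helix-loop-helix transcription factor, is needed in seedlings for PYK10 expression and for ER bodies. NAI2 is an ER body protein required for their formation, and MEB1 is an integral membrane protein of ER bodies. Jacalin-related lectins bind the glucosidase after cell rupture and set the size of its aggregates. JAL30 is also known as PYK10-binding protein 1.

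The upstream sequences of 4 of these genes are shown because they belong to the glucosidase with the widest range between genotypes, the most abundant glucosidase, the transcription factor and the structural ER body protein. Each is the 250 bases before the RefSeq gene start in assembly TAIR10.1, given 5′ to 3′ on the strand of the gene. PYK10 lies on the minus strand of chromosome 3 (gene 2840477 to 2843781) with its window at chr3:2843782-2844031. BGLU18 lies on the plus strand of chromosome 1 (gene 19514989 to 19518411) with its window at chr1:19514739-19514988. NAI1 lies on the plus strand of chromosome 2 (gene 9684562 to 9686613) with its window at chr2:9684312-9684561. NAI2 lies on the minus strand of chromosome 3 (gene 5397541 to 5402653) with its window at chr3:5402654-5402903. Capitals mark the letters CACGTG, its own reverse complement, and CACATG, searched on both strands. These letters are of a kind bound by MYC-type basic helix-loop-helix proteins.
PYK10: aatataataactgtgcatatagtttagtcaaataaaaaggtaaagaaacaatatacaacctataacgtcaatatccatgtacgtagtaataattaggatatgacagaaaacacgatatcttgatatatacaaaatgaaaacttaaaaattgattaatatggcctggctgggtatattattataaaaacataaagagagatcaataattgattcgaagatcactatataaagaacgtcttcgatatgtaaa
BGLU18: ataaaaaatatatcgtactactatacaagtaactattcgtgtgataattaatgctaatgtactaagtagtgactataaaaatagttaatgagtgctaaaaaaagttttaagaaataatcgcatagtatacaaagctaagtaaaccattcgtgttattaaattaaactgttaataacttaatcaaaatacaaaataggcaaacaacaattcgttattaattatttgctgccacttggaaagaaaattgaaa
NAI1: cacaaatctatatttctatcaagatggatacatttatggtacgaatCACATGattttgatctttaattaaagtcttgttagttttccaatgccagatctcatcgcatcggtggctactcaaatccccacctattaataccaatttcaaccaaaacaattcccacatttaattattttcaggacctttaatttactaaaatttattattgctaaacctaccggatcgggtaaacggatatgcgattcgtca
NAI2: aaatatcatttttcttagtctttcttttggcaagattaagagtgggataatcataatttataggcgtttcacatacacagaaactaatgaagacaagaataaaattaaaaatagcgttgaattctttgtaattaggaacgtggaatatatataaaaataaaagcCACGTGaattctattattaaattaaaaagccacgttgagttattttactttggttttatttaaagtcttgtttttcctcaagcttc

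CACGTG was present in the window of 1 of the 10 genes, NAI2, where it began 80 bases before the gene start, and in 6.49% of 27443 windows of the same length. CACATG was present in the window of 1 of the 10 genes, NAI1, and in 11.1% of all windows. The motifs were thus no more than single matches among the 10 genes, and a match in these letters is a description, not a binding site.

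The libraries had 56884740 to 227159338 reads, of which 91.4% to 94.2% were mapped. Genes listed at 0 numbered 9582 in ccrfer replicate 3, 7101 in ccrfer replicate 1, and 8216 and 7625 in labelled fer replicates 2 and 3. Each other library had 6064 to 6686 such genes, so zeros and low values do not weigh the same in all libraries. FER averaged 0.849 ± 0.668 FPKM in ccrfer, 84.1 ± 1.015 in the libraries labelled fer, 98.2 ± 1.96 in ccr and 84.1 ± 1.58 in WT (SD, n = 3 each). FPKM gives fragments relative to the length of the transcript and the size of the library. The level of FER in the fer group thus equalled that of WT, against the label, and the group is called labelled fer throughout. CCR1 averaged 206 FPKM in ccrfer, 319 in the libraries labelled fer, 199.0 in ccr and 236 in WT, which does not identify the ccr1-3 allele. The summed level of 6 stem secondary wall markers was 848 to 858 FPKM in ccrfer, 315 to 334 in the libraries labelled fer, 453 to 462 in ccr and 8.21 to 11.4 in WT, so that these defining markers of a mature stem were nearly absent from WT. The summed level of 4 markers of senescing tissue was 143 to 153 FPKM in ccrfer, 168 to 191 in the libraries labelled fer, 162.5 to 171 in ccr and 522 to 541 in WT. The summed level of 4 seed markers was 84.0 to 92.9 FPKM in the libraries labelled fer and at most 1.48 FPKM in any other library. AT2G01021 reached 6128100 and 45932600 FPKM in ccrfer replicates 1 and 3 and 1429630 to 15147300 in the libraries labelled fer, against 113705 in ccrfer replicate 2 and 42536.3 to 410312 in ccr and WT. The part of these differences between libraries in the results was not tested.

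All 10 genes were higher in ccrfer than in ccr, and all 10 were higher in labelled fer than in WT. In each of the 10, every one of the 6 ccrfer and labelled fer libraries lay above every one of the 6 ccr and WT libraries, a pattern held by 4.72% of the 18428 genes tested. The filter favoured this pattern in NAI1, JAL22 and JAL33, which passed it through ccrfer and labelled fer libraries alone. Their summed level was 1099.8 ± 61.4 FPKM in ccrfer and 1183 ± 61.8 in the libraries labelled fer, against 134.6 ± 3.45 in ccr and 132 ± 2.61 in WT (SD, n = 3 each). In bulk stems, more cells that make these transcripts and more transcript per cell cannot be told apart.

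**Figure D1:**
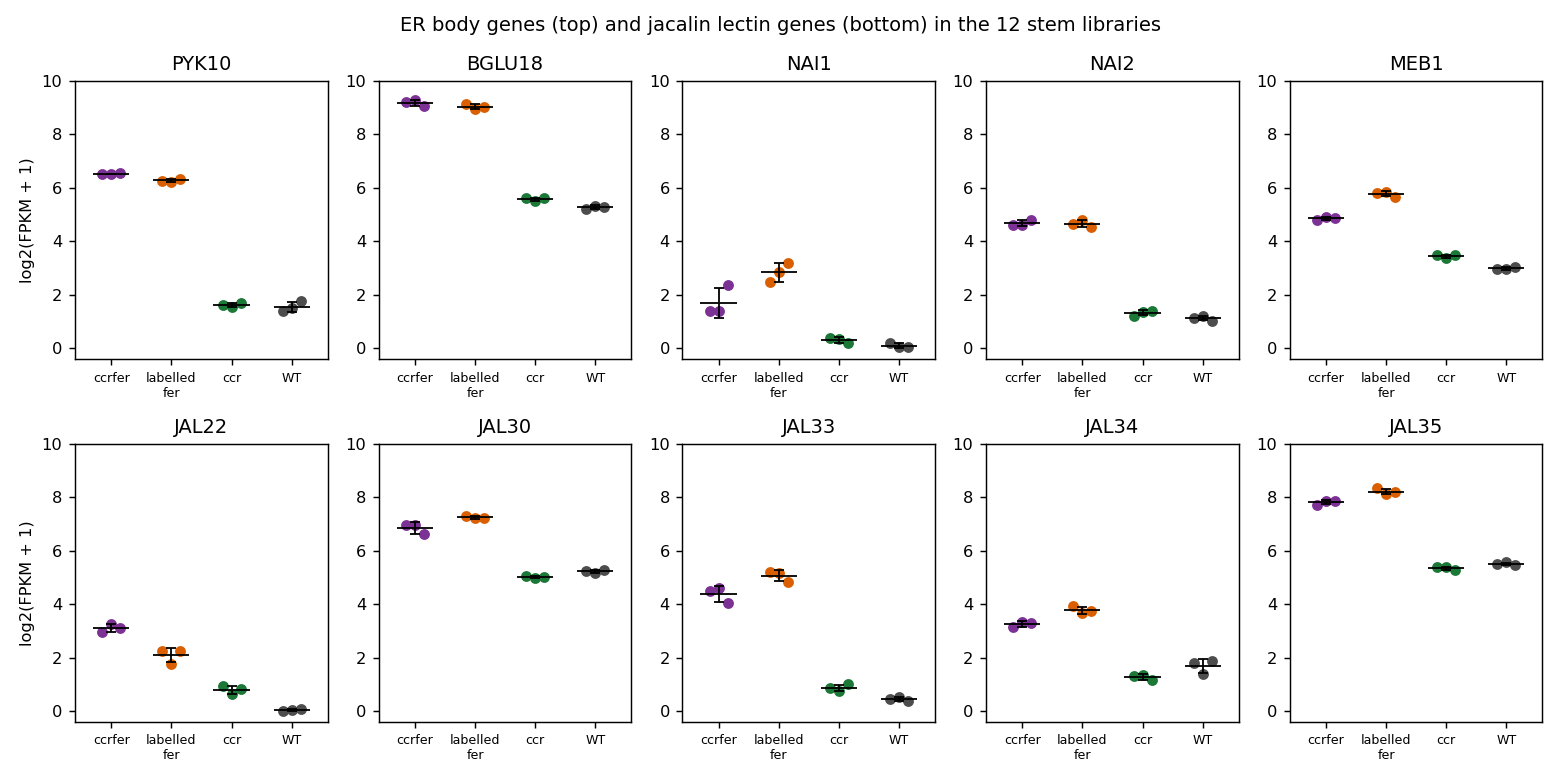
Levels of the 10 genes in the 12 stem libraries as log2(FPKM + 1), with one panel per gene, one point per library, the mean as a line and the SD as a bar (n = 3 per genotype). In each panel the ccrfer and labelled fer points lie above all ccr and WT points.

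BGLU18 had the highest mean of the 10 genes in ccrfer, in the libraries labelled fer and in ccr, and JAL35 had the highest in WT. BGLU18 was at 587, 623 and 528.5 FPKM in ccrfer and at 559, 495 and 523 FPKM in the libraries labelled fer. It was at 48.0, 44.8 and 48.2 FPKM in ccr and at 35.85, 39.45 and 38.4 FPKM in WT. The ccrfer and labelled fer libraries overlapped, and all ccr libraries were above all WT libraries. BGLU18 was 12.3-fold higher in ccrfer than in ccr (log2 difference 3.59, SE 0.0710) and 13.9-fold higher in labelled fer than in WT (3.76 on the log2 scale). Differences are on the log2(FPKM + 1) scale, which understates those of genes at low FPKM, and folds are ratios of mean FPKM. BGLU18 made up 52.7% of the summed FPKM of the 10 genes in ccrfer, 44.4% in the libraries labelled fer, 34.9% in ccr and 28.8% in WT.

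PYK10 had the widest relative range of the genes that were above 1 FPKM in every library. It was at 90.3, 90.4 and 92.1 FPKM in ccrfer and at 76.5, 73.6 and 80.1 FPKM in the libraries labelled fer. It was at 2.07, 1.925 and 2.21 FPKM in ccr and at 1.62, 1.88 and 2.38 FPKM in WT. The ccrfer libraries were thus the highest and close together, whereas ccr and WT overlapped. PYK10 was 44.0-fold higher in ccrfer than in ccr (log2 difference 4.91, SE 0.0936), and leaving out any 1 of the 12 libraries gave 4.87 to 4.94. It was 39.1-fold higher in labelled fer than in WT (log2 difference 4.72). In ccrfer replicate 2 AT2G01021 was at 113705 FPKM, within its range in ccr and WT, and PYK10 was at 90.4 FPKM. A link between them was not tested.

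PYK10 is best known from roots, and 10 root markers were therefore read beside it. Their summed level was at most 0.578 FPKM in ccrfer, 1.44 in the libraries labelled fer, 0.391 in ccr and 0.703 in WT, and no root marker averaged over 1 FPKM in any genotype. SHV2, RHD6, RSL4, EXPA7 and PRP3 were listed at 0 in all 12 libraries. The seed markers, raised in the libraries labelled fer, summed to 0 to 0.914 FPKM in ccrfer.

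NAI1 was expressed at a low level throughout. It was at 1.63, 1.60 and 4.11 FPKM in ccrfer and at 4.53, 6.28 and 8.17 FPKM in the libraries labelled fer. It was at 0.319, 0.278 and 0.137 FPKM in ccr and at 0.148, 0.0366 and 0.0272 FPKM in WT. All labelled fer libraries were above all ccrfer libraries, and ccr and WT overlapped below 1 FPKM. The log2 difference was 1.40 (SE 0.261) between ccrfer and ccr, 2.75 between labelled fer and WT, and -1.13 between ccrfer and labelled fer. Replicate 3 held much of the ccrfer level, and the difference from ccr was 1.08 without it. With a pseudocount of 0.1 in place of 1 the difference between ccrfer and ccr was 2.79. By the order of means NAI1 was unlike PYK10 and BGLU18, both of which had their highest mean in ccrfer. Those 2 exceeded labelled fer by log2 differences of only 0.24 in PYK10 and 0.14 in BGLU18, whose libraries overlapped.

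The structural genes differed from each other in this order as well. NAI2 was at 23.3, 23.6 and 27.0 FPKM in ccrfer and at 24.1, 26.9 and 22.4 FPKM in the libraries labelled fer. It was at 1.32, 1.58 and 1.65 FPKM in ccr and at 1.22, 1.31 and 1.05 FPKM in WT. The ccrfer and labelled fer libraries overlapped, with a log2 difference of 0.0084, and NAI2 was 16.2-fold higher in ccrfer than in ccr (log2 difference 3.35, SE 0.111).

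MEB1 was at 26.75, 29.45 and 28.2 FPKM in ccrfer and at 55.4, 56.6 and 49.95 FPKM in the libraries labelled fer. It was at 10.3, 9.39 and 10.1 FPKM in ccr and at 6.77, 6.89 and 7.25 FPKM in WT. No pair of genotypes overlapped in MEB1, with labelled fer highest and WT lowest. Its log2 difference was 1.42 (SE 0.0740) between ccrfer and ccr and 2.79 between labelled fer and WT. The ccrfer mean was 0.521 of the labelled fer mean, while the ccr mean was 1.42-fold the WT mean. Like NAI1, MEB1 had its highest level in the libraries labelled fer.

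The jacalin lectins fell into an abundant pair and 3 genes of lower level. JAL35, the most abundant, was at 209, 229 and 230.2 FPKM in ccrfer and at 320.2, 278 and 290.0 FPKM in the libraries labelled fer. It was at 40.5, 40.4 and 37.7 FPKM in ccr and at 43.8, 46.1 and 43.5 FPKM in WT. All 4 genotypes were apart, and here ccr was below WT. JAL35 was 5.64-fold higher in ccrfer than in ccr (log2 difference 2.46, SE 0.0642).

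JAL30 was at 125, 124 and 96.4 FPKM in ccrfer and at 158, 147 and 148 FPKM in the libraries labelled fer. It was at 32.6, 30.2 and 31.3 FPKM in ccr and at 36.6, 35.0 and 38.0 FPKM in WT. It had the same order of genotypes as JAL35, again without overlap. JAL30 was 3.67-fold higher in ccrfer than in ccr, with a log2 difference of 1.83 (SE 0.0890), the smallest ratio among the genes above 1 FPKM in every library after that of MEB1 (2.835).

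JAL34 was at 7.81, 9.02 and 8.90 FPKM in ccrfer and at 14.2, 11.6 and 12.4 FPKM in the libraries labelled fer. It was at 1.51, 1.56 and 1.22 FPKM in ccr and at 2.44, 1.61 and 2.64 FPKM in WT. Like JAL35 and JAL30, this lectin was highest in the libraries labelled fer and lowest in ccr, and it was 5.995-fold higher in ccrfer than in ccr (log2 difference 1.98, SE 0.146).

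JAL33 was at 21.8, 23.5 and 15.6 FPKM in ccrfer and at 35.9, 34.9 and 27.5 FPKM in the libraries labelled fer. It was at 0.834, 0.692 and 0.990 FPKM in ccr and at 0.355, 0.445 and 0.294 FPKM in WT. JAL33 was below 1 FPKM in all 6 ccr and WT libraries, with ccr above WT. Its log2 difference was 3.52 (SE 0.160) between ccrfer and ccr and 4.62 between labelled fer and WT, the widest of the lectins in both comparisons.

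JAL22 was at 6.73, 8.45 and 7.57 FPKM in ccrfer and at 3.71, 2.42 and 3.78 FPKM in the libraries labelled fer. It was at 0.923, 0.556 and 0.766 FPKM in ccr and at 0, 0.0353 and 0.0556 FPKM in WT. JAL22 was the one lectin of the 5 with its highest level in ccrfer, and all genotypes were apart. Its log2 difference was 2.296 (SE 0.165) between ccrfer and ccr, 1.01 between ccrfer and labelled fer, and 0.76 between ccr and WT. With a pseudocount of 0.1 the difference between labelled fer and WT was 4.70 in place of 2.05, and the difference of differences turned from 0.25 to -1.51.

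By the order of the genotype means the 10 genes thus formed 3 patterns. PYK10, BGLU18, NAI2 and JAL22 ran ccrfer, labelled fer, ccr, WT from the highest down. NAI1, MEB1 and JAL33 ran labelled fer, ccrfer, ccr, WT. JAL30, JAL34 and JAL35 ran labelled fer, ccrfer, WT, ccr. Neighbours in these orders overlapped in PYK10 and NAI1 (ccr and WT) and in BGLU18 and NAI2 (ccrfer and labelled fer), and in none of the other 6 genes.

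**Figure D2:**
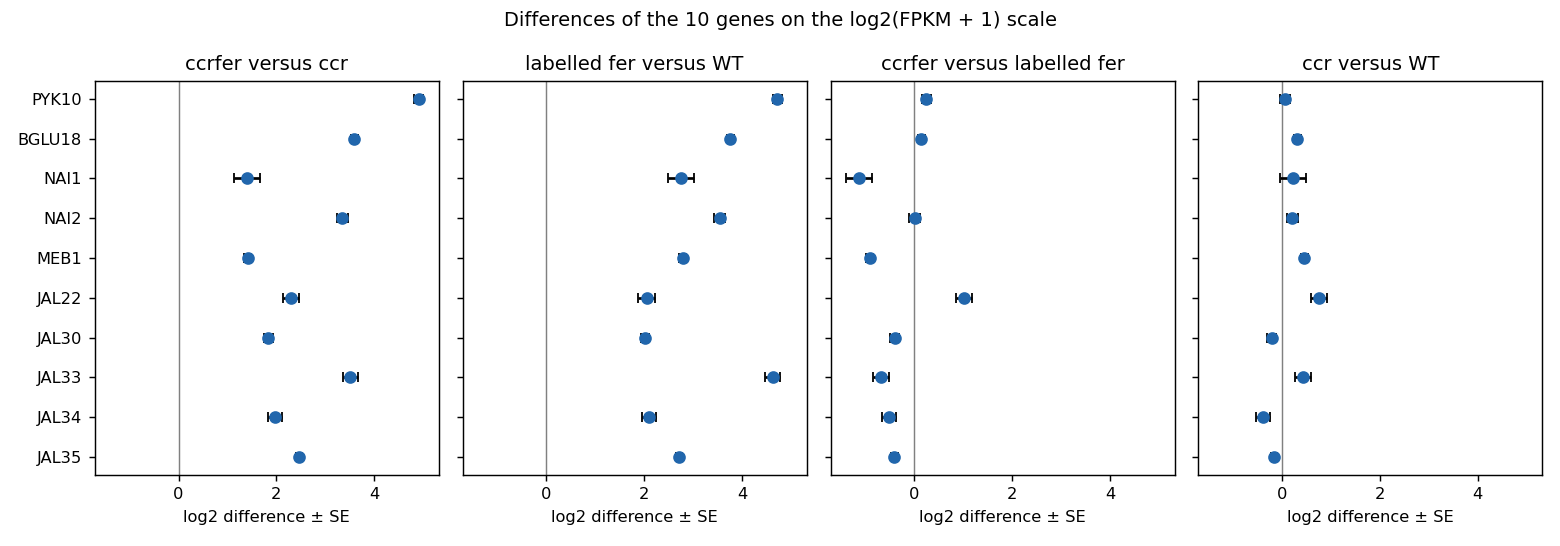
Log2 differences of the 10 genes on the log2(FPKM + 1) scale in 4 comparisons, with a point for the estimate and a bar for its SE (3 libraries per genotype). All 10 points are above 0 in the panels ccrfer versus ccr and labelled fer versus WT, and they scatter around 0 in ccrfer versus labelled fer and ccr versus WT.

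The median log2 difference of the 10 genes between ccrfer and ccr was 2.38, beside 0.0034 over all genes tested. At an adjusted p under 0.05, the calls between ccrfer and ccr were 10 higher and 0 lower of 10, beside shares of 10.4% and 10.1% over all genes tested. The 2 sets of libraries did not overlap in 10 of 10, as in 19.8% of all genes in that direction. Between labelled fer and WT the median was 2.77, beside 0.036 over all genes, and 10 of 10 were called higher and 0 lower, against 28.4% and 23.2% of all genes. The libraries did not overlap in 10 of 10, as in 34.5% of all genes in that direction. Between ccrfer and WT, 10 of 10 were called higher and 0 lower, against 24.9% and 22.8% of all genes. Without NAI1, JAL22 and JAL33, which were under 1 FPKM in all ccr and WT libraries, the calls were 7 of 7 in both of the first comparisons. Since the genes were chosen for these levels, nothing is read from these counts or from those of the next comparisons.

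Between ccrfer and labelled fer, 1 of the 10 genes (JAL22) was called higher, where 19.3% of all genes were, and 6 were called lower, where 21.3% of all genes were. The 6 were NAI1, MEB1, JAL30, JAL33, JAL34 and JAL35, with log2 differences of -1.13, -0.92, -0.40, -0.68, -0.52 and -0.41. By library values, 2 genes lay wholly above labelled fer (20.7% of all genes) and 6 wholly below (22.3%). Between ccr and WT, 4 genes were called higher, against 24.0% of all genes, and 1 was called lower, against 19.8%. The 4 were BGLU18 (0.30), MEB1 (0.45), JAL22 (0.76) and JAL33 (0.43), and the 1 was JAL34 (-0.40). The count called lower was not stable, running from 0 to 3 as single libraries were left out. By library values, 5 genes lay wholly above WT (36.8% of all genes) and 3 wholly below (32.1%). In each of the 10 genes the difference between ccr and WT was smaller in size than that between ccrfer and ccr.

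The difference of differences, which is ccrfer minus labelled fer less ccr minus WT, was called lower in 3 of the 10 genes and higher in 0, where 22.4% and 17.1% of all genes were called lower and higher. The 3 were NAI1 (-1.35), MEB1 (-1.37) and JAL33 (-1.11). In PYK10, BGLU18, NAI2, JAL30, JAL34 and JAL35 it lay between -0.24 and 0.19. These comparisons share their libraries and are not independent of one another.

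JAL30, JAL33, JAL34 and JAL35 lie together on chromosome 3, from 5579290 to 5599224 in TAIR10.1, a span of 19935 bp with 7 protein-coding genes. The genes between them were far lower. JAL31 averaged 1.68 FPKM in ccrfer, 1.38 in the libraries labelled fer, 0.200 in ccr and 0.0350 in WT, with a log2 difference of 1.13 in ccrfer over ccr. It passed the filter through ccrfer and labelled fer libraries alone. MLP-300B was above 0 in 1 library only, at 0.114 FPKM in ccrfer replicate 2, and AT3G16432 was listed at 0 in all 12. JAL30 and JAL31 share 89.0% of their aligned coding bases, and JAL33 and MLP-300B share 83.8%, so the split of reads within these pairs is uncertain. JAL34 and JAL35 overlap by 631 bp on opposite strands. The libraries were stranded, but no source used here states whether counting used the strand, and the low JAL34 values beside JAL35 are uncertain to that extent.

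NSP1, a nitrile specifier protein gene beyond NSP4 from JAL30, averaged 178 FPKM in ccrfer, 128 in the libraries labelled fer, 44.4 in ccr and 103.6 in WT. It rose by 1.98 on the log2 scale in ccrfer over ccr (adjusted p = 3.24e-10) but by 0.31 in labelled fer over WT (adjusted p = 0.000632), and the difference between these effects was 1.68 (adjusted p = 1.79e-08, limma). The call in labelled fer over WT was lost with quantile normalization (log2 difference 0.13, adjusted p = 0.0559). NSP1 too had all 6 ccrfer and labelled fer libraries above all 6 ccr and WT libraries. MPPalpha, which encodes a subunit of the mitochondrial processing peptidase and lies next to JAL35, averaged 20.0 FPKM in ccrfer, 18.7 in the libraries labelled fer, 17.7 in ccr and 15.75 in WT, with a log2 difference of 0.16 between ccrfer and ccr (adjusted p = 0.177). It was called higher in ccrfer over WT (0.32, adjusted p = 0.00478) and in labelled fer over WT (0.23, adjusted p = 0.0269, limma). The call in labelled fer over WT was lost with median-of-ratios scaling (0.19, adjusted p = 0.0562). NSP3 averaged under 1 FPKM in each genotype, and NSP4 was at most 0.107 FPKM in any library.

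**Figure D3:**
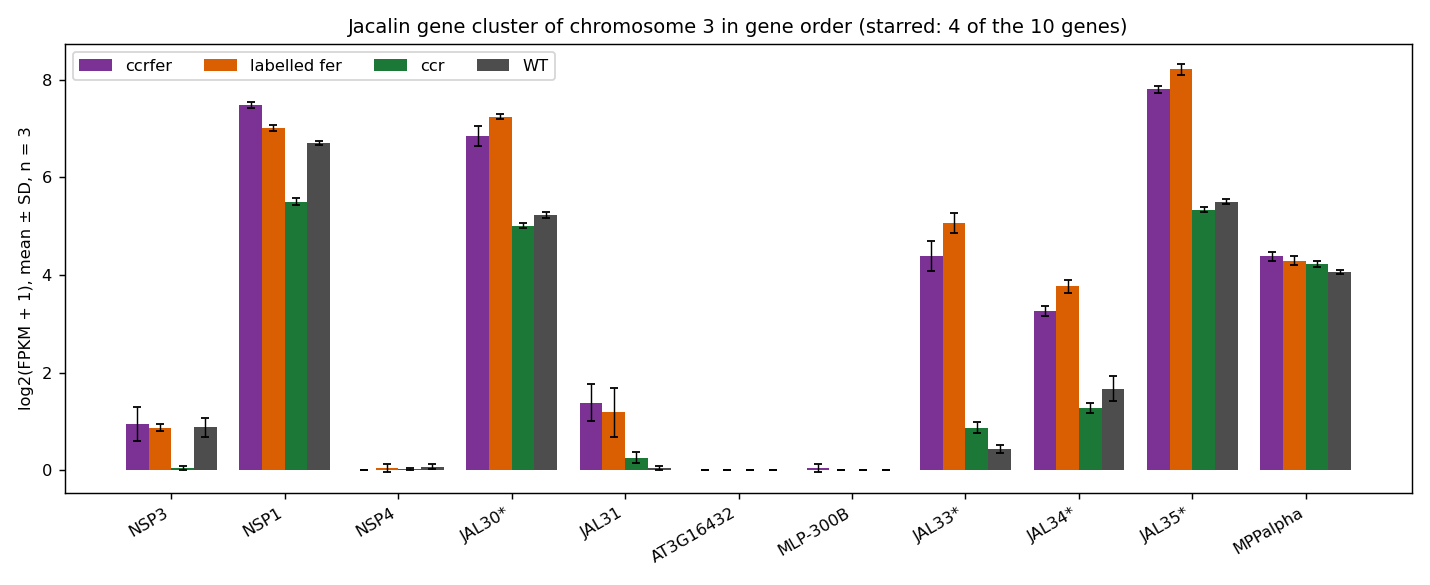
Mean log2(FPKM + 1) with SD (n = 3) of the genes in and beside the chromosome 3 jacalin cluster, in gene order, with 4 bars per gene for ccrfer, labelled fer, ccr and WT. JAL30, JAL33, JAL34 and JAL35 (starred) are higher in ccrfer and labelled fer than in ccr and WT, while MPPalpha stays between 15.2 and 21.6 FPKM in all libraries.

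Of 12 other genes tied to ER bodies or to PYK10 complexes, 8 passed the filter on low values. BGLU22 passed through its ccrfer libraries alone and AT1G54020 through ccrfer and labelled fer libraries alone, so that the filter favoured a difference in both, while BGLU19 was left out by the same filter. The remaining 6 all rose in ccrfer over ccr, beside 10.4% of all genes, and all rose in labelled fer over WT, beside 28.4% of all genes. With both genes counted, the calls were 8 of 8 and 7 of 8. GLL22 was the least firm of them (log2 difference 0.85, adjusted p = 0.0278), and its call in ccrfer over ccr was lost on leaving out any ccr library or ccrfer replicate 1 or 2 (adjusted p 0.0577 to 0.0988). These lists, like the 10 genes, were drawn up with earlier results of these libraries known, so that their p-values are not independent of that choice. Genes of the other lists below were mostly named for a call in ccrfer over ccr, so that call was a condition of being named.

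TSA1, a close relative of NAI2 that is also an ER body protein, lies next to BGLU18 on chromosome 1. It was at 190.3, 192 and 187 FPKM in ccrfer, at 254, 247 and 246 FPKM in the libraries labelled fer, at 40.6, 39.1 and 40.7 FPKM in ccr and at 40.7, 42.45 and 38.45 FPKM in WT. TSA1 rose by 2.21 on the log2 scale in ccrfer over ccr (adjusted p = 4.16e-11) and by 2.59 in labelled fer over WT (adjusted p = 2.695e-12, limma). It was thus more abundant than NAI2 in all 12 libraries. NAI2 and TSA1 share 71.7% of their aligned coding bases.

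Among the GDSL lipase-like genes, whose products are found with PYK10 in its aggregates, AT1G54020 had the widest difference. It averaged 15.5 FPKM in ccrfer and 13.95 in the libraries labelled fer, against 0.373 in ccr and 0.0582 in WT, with log2 differences of 3.58 in ccrfer over ccr and 3.82 in labelled fer over WT. Its neighbour AT1G54010 rose by 1.23 and MVP1, whose product takes part in ER organization, by 0.59 in ccrfer over ccr (adjusted p = 0.000999 and 0.00159, limma). MEB2, the second ER body membrane protein gene, averaged 3.24 FPKM in ccrfer and 6.75 in the libraries labelled fer, against 0.754 in ccr and 1.16 in WT, and it rose in both comparisons (adjusted p = 0.000959 and 1.05e-05, limma). Like MEB1, it was higher in labelled fer libraries than in ccrfer, by a log2 difference of -0.90 for ccrfer over labelled fer (adjusted p = 0.00402).

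The glucosidases nearest in sequence to PYK10 were low or listed at 0. BGLU21 and BGLU24, which share 83.7% and 82.0% of aligned coding bases with PYK10, were listed at 0 in all 12 libraries. BGLU22, with 83.4%, averaged 2.22 FPKM in ccrfer, 0.173 in the libraries labelled fer, 0.162 in ccr and 0.131 in WT. The log2 difference was 1.44 in ccrfer over ccr and 0.05 in labelled fer over WT. The summed level of the 3 copies was thus small beside that of PYK10, though how reads shared among them were split is not stated. BGLU25 rose by 0.59 in ccrfer over ccr and by 1.28 in ccr over WT (adjusted p = 0.00242 and 2.045e-06, limma). BGLU19 averaged 1.13 FPKM in the libraries labelled fer and at most 0.0460 FPKM elsewhere, and ATA27 (BGLU20) stayed at or below 0.0555 FPKM.

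Of 39 other jacalin lectin genes, 11 were tested, of which 8 rose and 0 fell in ccrfer over ccr (10.4% and 10.1% of all genes), and 9 rose and 0 fell in labelled fer over WT (28.4% and 23.2% of all genes). JAL31 is among both, and without it 7 and 8 rose. JAL23, which shares 86.7% of aligned coding bases with JAL22, averaged 489.6 FPKM in ccrfer, 722 in the libraries labelled fer, 94.3 in ccr and 51.6 in WT. It rose by 2.36 in ccrfer over ccr (adjusted p = 1.31e-10) and by 3.78 in labelled fer over WT (adjusted p = 6.65e-13, limma). How reads shared by this pair were split was not tested, and JAL22 and JAL23 had opposite orders of ccrfer and labelled fer. MBP1 and MBP2 encode lectins that bind myrosinases. MBP1 averaged 252 FPKM in ccrfer, 193 in the libraries labelled fer, 23.25 in ccr and 3.47 in WT, with log2 differences of 3.38 in ccrfer over ccr and 5.45 in labelled fer over WT (adjusted p = 1.31e-10 and 6.275e-13, limma). MBP2 rose by 2.76 and 4.32 in the same comparisons (adjusted p = 5.99e-09 and 2.78e-11, limma).

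The wider glucosinolate and jasmonate lists held genes of both directions. Over all genes tested, 10.4% rose and 10.1% fell in ccrfer over ccr, and 28.4% rose and 23.2% fell in labelled fer over WT. Of 7 myrosinase and specifier genes tested, 6 rose and 0 fell in ccrfer over ccr, and in labelled fer over WT 5 rose and 2 fell. Without ESM1, which passed the filter through ccrfer libraries alone and was named for that after its values were seen, 5 of 6 rose in ccrfer over ccr, and 4 rose and 2 fell in labelled fer over WT. The myrosinase gene TGG2 averaged 242 FPKM in ccrfer, 110.4 in the libraries labelled fer, 94.2 in ccr and 0.518 in WT, so that unlike the 10 genes it was high in ccr. TGG1 and TGG2 are themselves markers of myrosin and guard cells, and the summed level of 4 such markers was 438.5 to 451 FPKM in ccrfer, 234 to 245.5 in the libraries labelled fer, 173 to 181 in ccr and 9.16 to 11.1 in WT. TGG1 and TGG2 made up most of this sum outside WT and were lowest in WT. The markers FAMA and MYB60 were instead lowest in ccr. FAMA averaged 6.78 FPKM in ccrfer, 7.49 in the libraries labelled fer, 2.93 in ccr and 4.61 in WT, and MYB60 averaged 3.09, 2.22, 0.603 and 3.20. The summed level of 4 epidermis markers was 156 to 166 FPKM in ccrfer, 161 to 184 in the libraries labelled fer, 119 to 121 in ccr and 79.1 to 83.7 in WT. KCS6 made up most of this sum and, like KCS2, was lowest in WT. ATML1 averaged 6.09 FPKM in ccrfer, 4.07 in the libraries labelled fer, 2.71 in ccr and 5.35 in WT, and PDF1 averaged under 1 FPKM in each genotype. The part of these cell types in the levels of the 10 genes was not tested. ESP, whose product steers glucosinolate breakdown to epithionitriles, rose by 1.39 in ccrfer over ccr (adjusted p = 6.91e-06, limma).

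Of 14 indolic glucosinolate genes tested, 8 rose and 5 fell in ccrfer over ccr, and 9 rose and 4 fell in labelled fer over WT, beside the same shares of all genes (10.4% higher and 10.1% lower, and 28.4% higher and 23.2% lower). CYP81F4, which modifies the indole ring, had a log2 difference of 3.24 and passed the filter through ccrfer and labelled fer libraries alone. Without it, of 13 genes 7 rose and 5 fell in ccrfer over ccr, and 8 rose and 4 fell in labelled fer over WT. MYB34, a regulator of the pathway, rose by 0.93 (adjusted p = 6.18e-05). IGMT2, a methyltransferase gene of the same branch, fell by 1.07 (adjusted p = 0.0164, limma), a call lost without ccr replicate 3 (adjusted p = 0.060).

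Of 14 jasmonate signalling and output genes, 9 rose and 1 fell in ccrfer over ccr, and 12 rose and 1 fell in labelled fer over WT, beside 10.4% and 10.1% of all genes in the first comparison and 28.4% and 23.2% in the second. VSP1, a vegetative storage protein gene induced by jasmonate, averaged 30.1 FPKM in ccrfer, 25.8 in the libraries labelled fer, 0.995 in ccr and 0.654 in WT. It rose by 3.96 in ccrfer over ccr (adjusted p = 1.06e-09) and by 4.02 in labelled fer over WT (adjusted p = 1.91e-10, limma). LOX2, a lipoxygenase gene of jasmonate synthesis, averaged 70.1, 216, 6.91 and 2.51 FPKM in ccrfer, labelled fer, ccr and WT. The 1 gene that fell in ccrfer over ccr, named after its value was seen, was MYC2, a master regulator of jasmonate responses and of ER body genes, with means of 81.4 FPKM in ccrfer, 194.5 in the libraries labelled fer, 110.5 in ccr and 110.1 in WT (log2 difference -0.44 in ccrfer over ccr, adjusted p = 0.000875, limma).

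Of 21 other beta-glucosidase genes tested, 10 rose and 4 fell in ccrfer over ccr, and 9 rose and 7 fell in labelled fer over WT, which read beside 10.4% higher and 10.1% lower, and 28.4% higher and 23.2% lower, over all genes. BGLU44 rose by 1.74 in ccrfer over ccr but fell by 1.49 in labelled fer over WT (adjusted p = 1.265e-08 and 7.56e-09, limma). BGLU31 fell by 2.13 in ccrfer over ccr (adjusted p = 4.59e-06), and BGLU1 rose by 0.99 (adjusted p = 3.46e-06, limma). The placing of all 6 ccrfer and labelled fer libraries above all 6 ccr and WT libraries was found in 4 of these 21 genes, beside 5 of 8 ER body companions, 7 of 11 other jacalins, 5 of 7 myrosinase and specifier genes, 6 of 14 indolic genes and 9 of 14 jasmonate genes, where 4.72% of all genes tested had it. These counts include AT1G54020, JAL31, ESM1 and CYP81F4, which passed the filter through ccrfer or labelled fer libraries alone, so that the filter favoured the pattern in them.

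**Figure D4:**
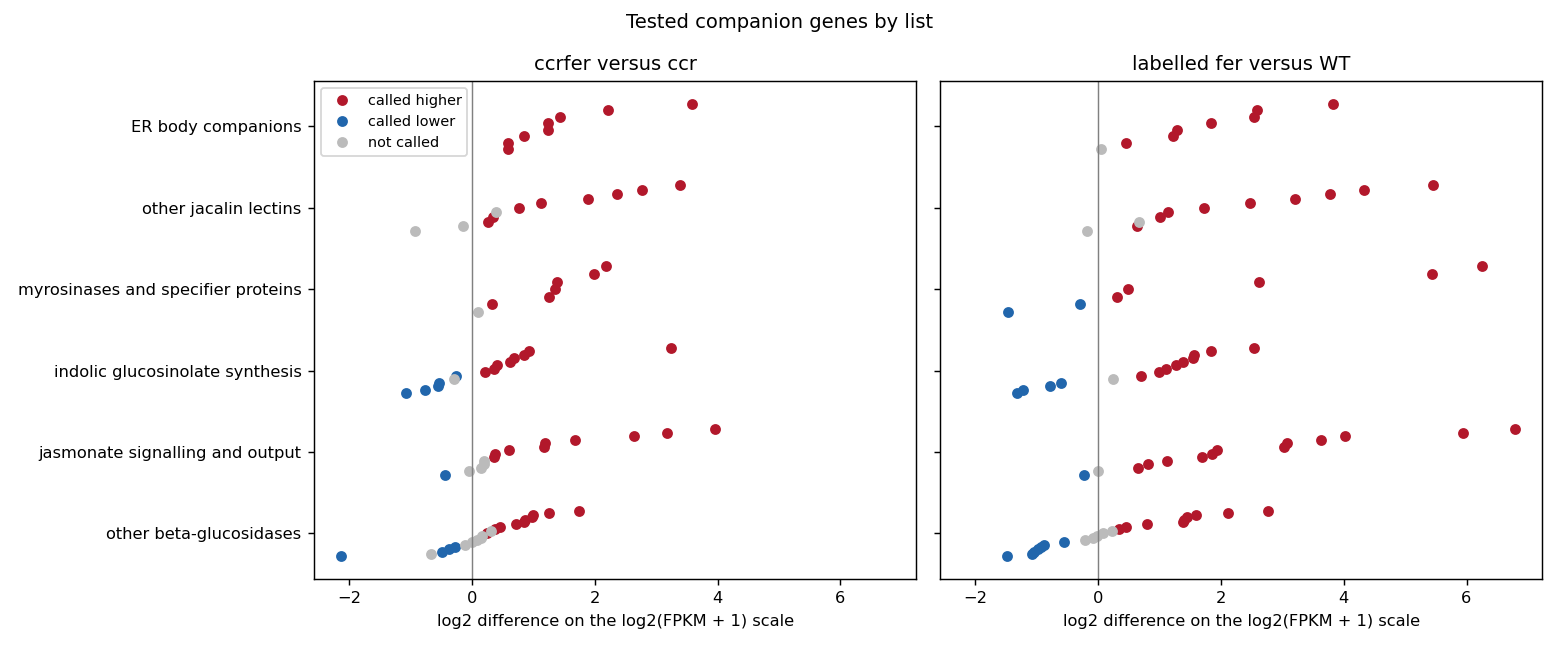
Log2 differences on the log2(FPKM + 1) scale of the tested companion genes, one point per gene and one band per list, in ccrfer versus ccr (left) and labelled fer versus WT (right). Red points were called higher, blue called lower and grey not called at an adjusted p under 0.05, and the 8 ER body companions are all red on the left.

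The tested genes outside the set whose profiles over the 12 libraries were nearest to each of the 10 were found by the root mean square difference of log2(FPKM + 1) after each gene was centred on its own mean. Those nearest to PYK10 were VSP1 (0.44), PGL5 (0.51), AT4G11320 (0.56), AT1G54020 (0.59) and ARGAH2 (0.68), where the median over all genes was 2.42. For the other genes of the set that median was lower, from 1.01 (JAL30) to 2.07 (JAL33), and their values are to be read against it. PGL5 encodes a 6-phosphogluconolactonase, AT4G11320 a papain-type protease and ARGAH2 an arginase. AT1G54020 was also the nearest gene to BGLU18 (0.13) and to NAI2 (0.24). TSA1 was the nearest to JAL35 (0.12) and to JAL34 (0.28), and PGL5 was the nearest to JAL33 (0.29). The nearest to NAI1 was scpl10 (0.29), that to MEB1 was BGLU6 (0.13), that to JAL22 was AT2G46640 (0.21) and that to JAL30 was AT1G06620 (0.18). Within the set the closest pairs were JAL30 with JAL34 (0.18) and BGLU18 with NAI2 (0.19), and NAI1 with MEB1 differed by 0.32. All these values share the same 12 libraries.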

How the data were processed

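Stranded mRNA libraries (pairs of 75 bp reads) were made per the labels' protocols, and the submitters' processing notes name Cufflinks 2.2.1, Cuffdiff, TopHat2 2.1.1 and Bowtie2 2.3.2.0. The FPKM values of 27655 genes were computed by the authors, on Araport11 models of TAIR10 per the file headers. The numbers (counts) of reads and the mapped fraction per library were deposited by the authors. The authors also deposited a table of 313 genes with log2 ratios and p-values, which held 0 of the 10 genes and was not used for results. Scaling factors between libraries were 0.9835 to 1.02. The fragments behind a single gene's value are not known.

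From these values, log2(FPKM + 1) was tested for 18428 genes (3 or more libraries with FPKM of at least 1) with limma 3.58.1 in R 4.3.3 (all 12 libraries, a mean per genotype, trend, two-sided, Benjamini-Hochberg over all genes tested, threshold 0.05). SE is that of this fit. The scripts were tested on simulated data. Alternatives were another pseudocount, no filter, 2 other scalings, a replicate block and each library left out. Same-numbered libraries deviated together with correlations of -0.129 to 0.191 (median 0.0165, 18 pairs), so the numbers do not pair the libraries.

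Identifiers were matched to RefSeq TAIR10.1 (27445 of 27655), whose genes overlapped 312 of 312 of the authors' coordinates on the same strand. Coding sequence identity is over the shorter sequence of an alignment (Biopython 1.88). The 10 genes, the lists and the markers were chosen with earlier results of these data known. Named besides the 10 are all ER body companions, up to 3 genes of each other list with the largest called difference in ccrfer over ccr (no overlap, mean FPKM of at least 5), genomic neighbours, nearest profiles (5 for PYK10, 1 for each other gene), FER, CCR1 and AT2G01021. In a further list, 7 flower and pollen markers summed to at most 4.56 FPKM in any library.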

Additional observations from a re-analysis of the deposited data

Results flagged for a closer look

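In 2 of the 10 genes ccrfer against labelled fer and ccr against WT differed in opposite directions. MEB1 was lower in every ccrfer library than in any labelled fer library (log2 difference -0.92), but higher in every ccr library than in any WT library (0.45). JAL33 showed the same with -0.68 and 0.43. The difference of differences was -1.37 in MEB1 and -1.11 in JAL33, given as a description with no p because the genes were chosen on their levels.

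In 20 other named genes, besides BGLU22, the limma interaction was called, which is ccrfer minus labelled fer less ccr minus WT. FER averaged 0.849 FPKM in ccrfer and 84.1 in the libraries labelled fer, so ccrfer minus labelled fer does not isolate ccr1-3. Among ER body companions the interaction was below 0 in TSA1 (-0.38, adjusted p = 0.000991), AT1G54010 (-1.31, adjusted p = 0.00328) and MVP1 (-0.70, adjusted p = 0.0024). It was called above 0 in BGLU22 (1.39), which passed the filter through its ccrfer libraries alone, so that the filter favoured a difference. The TSA1 value was -0.13 with quantile normalization (adjusted p = 0.173). Among lectins it was below 0 in MBP1 (-2.06), MBP2 (-1.56) and JAL23 (-1.42), with adjusted p of at most 5.69e-06. Among glucosinolate genes it was -4.90 in TGG2, -1.24 in ESP, -0.61 in MYB34 and 1.68 in NSP1, with adjusted p of at most 0.00741. Among jasmonate output genes it was -2.78 in LOX2 and -4.16 in VSP2. Among other glucosidases it was -2.20 in BGLU31, 3.23 in BGLU44 and -1.12 in BGLU1, with adjusted p of at most 2.73e-05. Among the remaining genes of nearest profile it was -1.51 in BGLU6, 1.22 in AT4G11320, -0.46 in ARGAH2 (adjusted p = 0.0427) and -1.63 in scpl10. These were picked for profiles nearest to MEB1, PYK10 or NAI1 in the same libraries, so their interactions are not independent of that choice. AT4G11320 also passed the filter through ccrfer and labelled fer libraries alone, so that the filter favoured a difference. The ARGAH2 call was lost without WT replicate 1 or 2, ccr replicate 1 or 2, ccrfer replicate 1 or 3, or labelled fer replicate 2 or 3 (adjusted p 0.0531 to 0.102). It was also lost with the replicate block (adjusted p = 0.0663), with no filter (adjusted p = 0.0539) and with quantile normalization (-0.22, adjusted p = 0.313). In FER itself it was -5.81 (adjusted p = 1.95e-08). Of all genes tested, 17.1% were called above 0 and 22.4% below 0 for this interaction. The interaction rests in part on libraries labelled fer whose FER level equalled that of WT.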

How the results depend on the processing

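The 10 genes were all called higher in ccrfer over ccr, labelled fer over WT and ccrfer over WT under every alternative run, and of 1020 recomputed differences of the 10 genes 966 moved by less than the spread between replicates. The other 54 did not, 27 of them with a pseudocount of 0.1, 21 with quantile normalization and 6 without ccrfer replicate 3. Signs turned in some differences, among them NAI2 in the difference of differences (-0.19, and 0.028 with quantile normalization). In JAL22 the difference of differences turned from 0.25 to -1.51 with a pseudocount of 0.1. The number called higher in ccrfer over labelled fer was 1, and 3 with quantile normalization, 2 with the replicate block and 1 to 2 on leaving out a library (2 without WT replicate 1 or 3 or ccrfer replicate 3). The number called lower in ccr over WT was 1 (JAL34), and 3 with median-of-ratios scaling, 0 with no filter, 0 with the replicate block and 0 to 3 on leaving out a library, with WT replicate 2 the one whose loss left it at 1. For the difference of differences the number called higher was 0, and 1 with quantile normalization. Of the ER body companions, 0 were called lower in ccr over WT, and 2 with quantile normalization, and TSA1 lost its difference of differences there (-0.13, adjusted p = 0.173). Among 3468 recomputed differences of other named genes, 51 lost their call and 27 gained one. The cause was not tested. Levels under 1 FPKM (NAI1, JAL22 and JAL33 in ccr and WT) depend on the pseudocount, and with 3 libraries per genotype the spread itself is poorly known.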
